A study of Mus musculus with 6 samples.

Results

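Transient receptor potential (TRP) channel genes were followed in pancreatic islets of mice with a labelled PPAR-beta deletion in the pancreas and of their littermates. The 10 genes were Trpm1, Trpm2, Trpm3, Trpm4, Trpm5, Trpm7, Trpc1, Trpc4, Trpa1 and Trpv4, out of 18193 genes that had a probe set of their own on the array. Every probe set whose platform annotation names one of them as its single symbol was used, which gave 27 of 45037 probe sets. The 10 genes were chosen from measured values of this same contrast, knockout against control, so their differences, and the count of them past a threshold, are given as a description that supports nothing.

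Islets came from 6 mice aged 8 weeks on a mixed SV 129 and C57BL/6 background, 1 array per animal. The 3 knockout-labelled arrays were from Pdx1Cre;PPARbetafl/fl mice, in which a Cre recombinase under the Pdx1 promoter, active throughout the developing pancreas, is meant to cut both floxed Ppard alleles. The 3 control arrays were from PPARbetafl/fl littermates, which carry the floxed alleles without Cre. The floxed alleles are thus shared by all 6 animals, and 0 arrays came from Cre-positive mice with intact Ppard, so the deletion and the Cre transgene cannot be told apart as the origin of any difference. The values are log2 expression per probe set from 1-colour Affymetrix arrays. Differences are knockout-labelled arrays minus control, with the moderated standard error (SE) of limma, a linear model fitted across all probe sets.

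TRP channels are cation channels of the plasma membrane and of internal membranes, opened by calcium, lipids, small ligands, heat or mechanical strain. In beta cells several of them carry inward current that adds to depolarisation after the ATP-sensitive potassium channels close, and so add to calcium entry and insulin release. TRPM5 and TRPM4 open on a rise of cell calcium, TRPM2 on ADP-ribose, TRPM3 on the steroid pregnenolone sulphate and on heat, and TRPC1 and TRPC4 downstream of phospholipase C.

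By source name the samples are beta-cells, but the isolation protocol is one for whole islets. Beta cell markers averaged 11.22 to 11.58 in the knockout-labelled arrays and 11.60 to 11.96 in the controls, and Gcg, the alpha cell hormone gene, was at 13.75 to 13.82 in the knockout-labelled arrays and 13.93 to 13.98 in the controls. Exocrine RNA differed widely between arrays. The mean of 10 acinar enzyme markers was 9.59, 5.96 and 6.31 in the knockout-labelled arrays 1 to 3, against 7.53, 12.28 and 12.25 in controls 1 to 3, and duct markers were also highest in controls 2 and 3 (8.70 and 8.61, against 7.41 to 7.62 on the other arrays). Ppard itself was not lower in the knockout-labelled arrays: 8.01, 8.20 and 7.70, against 7.75, 7.56 and 7.12 in controls, a difference of 0.49 ± 0.20 (adjusted p = 0.377). Which exon was floxed is not stated, so these probe sets may lie outside it, and the genotype is taken from the labels. In whole islets, fewer cells of a type and less RNA per cell cannot be told apart.

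The TRP genes differed in how they stood between the groups. On one probe set Trpm1, which encodes the melanocyte and retinal channel melastatin, was dim in all 3 controls and 3.64-fold higher in the knockout-labelled arrays. All 3 Trpm5 probe sets had lower means in the knockout-labelled arrays, by 0.42 to 0.81, with the value of control 2 among those of the knockout-labelled arrays. Trpm2, Trpm4, Trpm7 and Trpc1 differed by -0.22 to 0.13 on their brightest probe sets. Across the 27 probe sets, 9 means were higher and 18 lower in the knockout-labelled arrays, with a median difference of -0.12, beside -0.017 over all probe sets, of which 53.3% had a lower mean. One probe set, that of Trpm1, had an adjusted p under 0.05, where 0.897% of all probe sets did. Of the remaining 26, 5 had an unadjusted p under 0.05. The share of all probe sets under that unadjusted p was not counted here. The groups did not overlap on 5 of the 27 (1 higher and 4 lower), where 19.0% of all probe sets did not overlap. Because the genes were picked with this contrast known, nothing is read from these counts.

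**Figure D1:**
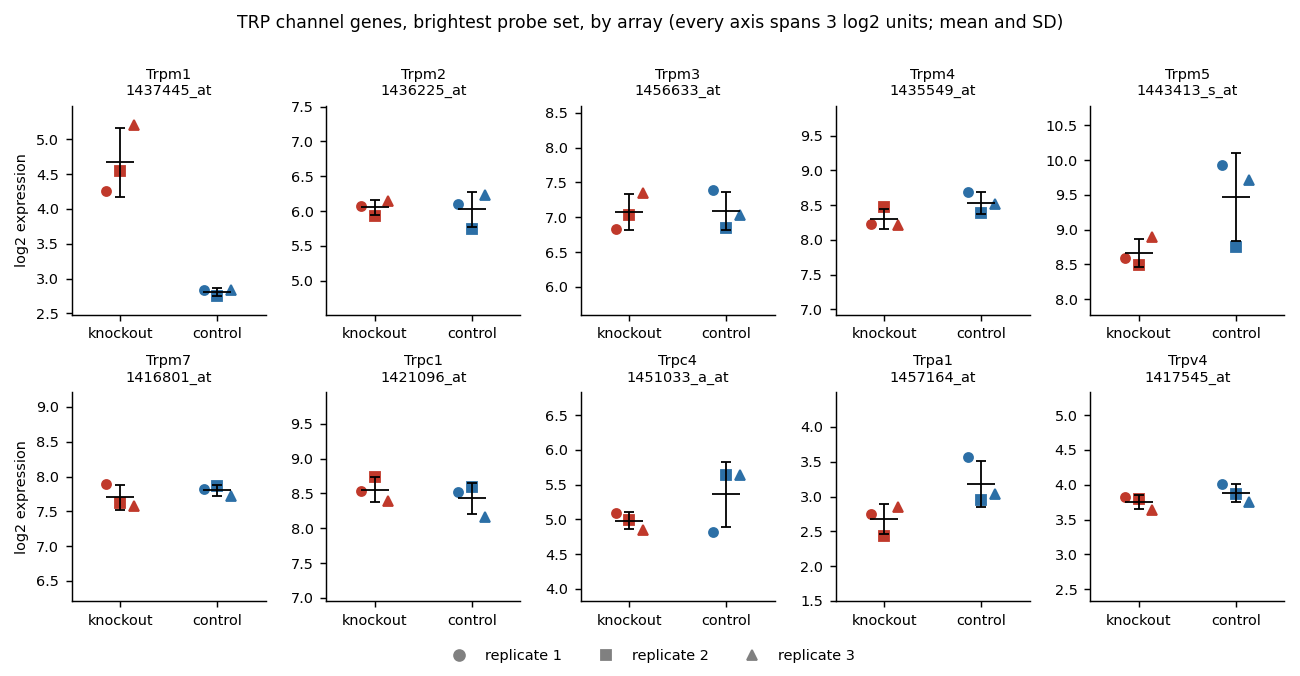
Log2 expression of the brightest probe set of each of the 10 TRP genes (y axis, every panel spanning 3 log2 units) on the 3 knockout-labelled arrays (left, red) and the 3 control arrays (right, blue), with symbols for replicates 1 to 3 and bars for the mean and SD. Trpm1 shows knockout values of 4.26 to 5.21 above controls at 2.75 to 2.84, Trpm5 shows control 2 at 8.75 among the knockout values, and the Trpc4 controls lie at 4.83 and, for controls 2 and 3, both at 5.63.

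Of the 27 probe sets, 14 had a mean log2 value of 5 or more over the 6 arrays and 13 a lower one. The values carry no detection call, and a probe set at 2 to 3 lies among the dimmest of the array, where differences are compressed by background. Trpm2, Trpm3, Trpm4, Trpm5, Trpm7, Trpc1 and Trpc4 each had a probe set at 5 or above, and Trpm1, Trpa1 and Trpv4 had none. Levels of different probe sets depend on their probes and are not set against each other here.

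Trpm5 encodes a monovalent cation channel opened by cell calcium, known from sweet, bitter and umami taste cells and, in mouse beta cells, from the fast electrical bursts that glucose evokes. Its brightest probe set (1443413_s_at) read 8.60, 8.50 and 8.89 in the knockout-labelled arrays 1 to 3, against 9.94, 8.75 and 9.71 in controls 1 to 3. Controls 1 and 3 lay above all 3 knockout-labelled arrays and control 2 lay between them, so the groups overlapped through control 2. The means were 8.66 ± 0.20 in the knockout-labelled arrays and 9.47 ± 0.63 in controls (SD, n = 3 each), a difference of -0.81 ± 0.30 (SE). The suffix s marks a probe set that can match transcripts of more than one gene, so this value is uncertain as a measure of Trpm5, while the next 2 probe sets carry no such mark.

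The second Trpm5 probe set (1418783_at) gave 7.78, 7.65 and 7.88 in the knockout-labelled arrays, against 8.89, 7.78 and 8.61 in controls (difference -0.66 ± 0.27). The third (1449224_at) gave 6.51, 6.13 and 6.80, against 7.26, 6.33 and 7.11 (difference -0.42 ± 0.28). Control 2 was the lowest control on each of the 3 probe sets. The gap between the first and second probe set stayed between 0.82 and 1.11 on every array, so these probe sets moved together from animal to animal. Leaving out 1 array at a time, the difference of the brightest probe set ranged from -1.16 to -0.57. A fit with each array's acinar marker mean as a covariate gave -1.16 ± 0.37, and control 1 alone gave -1.27. The acinar-rich controls did not act alike. Leaving out only control 2 gave -1.16, and leaving out only control 3 gave -0.68, a smaller difference than on all arrays.

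Trpm4 encodes the closest relative of TRPM5, also a calcium-activated channel that passes monovalent ions, and it associates with the sulphonylurea receptor SUR1 in injured neural tissue. Its single probe set (1435549_at) read 8.23, 8.47 and 8.21 in the knockout-labelled arrays, against 8.69, 8.38 and 8.52 in controls. Knockout 2 lay between controls 2 and 3, and the difference was -0.22 ± 0.13. It was -0.38 ± 0.16 with the acinar covariate and -0.38 against control 1 alone.

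Trpm2 encodes a channel opened by ADP-ribose and calcium, which links oxidative stress and NAD turnover to calcium entry and is known to take part in glucose-evoked insulin release in mice. Its brightest probe set (1436225_at) was at 6.08, 5.93 and 6.15 in the knockout-labelled arrays, against 6.09, 5.74 and 6.24 in controls, a difference of 0.03 ± 0.15. The knockout values lay inside the control range. A dimmer probe set (1459482_at) read 4.29, 4.04 and 4.67, against 4.22, 4.74 and 4.59 (difference -0.18 ± 0.20).

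Trpm3 encodes a channel gated by pregnenolone sulphate and heat, and it was measured by 6 probe sets that the annotation assigns to 5 transcript records. On the brightest (1456633_at) the values were 6.83, 7.04 and 7.35 in the knockout-labelled arrays, against 7.39, 6.85 and 7.04 in controls, a difference of -0.02 ± 0.19 with overlapping groups. The difference became -0.34 ± 0.18 with the acinar covariate and -0.31 against control 1 alone. The next probe set (1457927_at) read 5.11, 4.96 and 5.79, against 4.97, 5.22 and 5.03 (0.22 ± 0.22), with knockout 3 the highest array. The others were dimmer and did not follow a common pattern. On 1441966_at the knockout-labelled arrays were at 4.29, 4.40 and 4.20, against 3.95, 5.02 and 5.46 in controls. Here controls 2 and 3, the acinar-rich arrays, lay above control 1 by 1.29 on average. The difference of -0.51 ± 0.36 was 0.08 ± 0.35 with the acinar covariate. On 1439026_at the groups did not overlap, with 3.99, 3.86 and 4.09 in the knockout-labelled arrays, against 4.68, 4.21 and 4.43 in controls (-0.46 ± 0.15), and the acinar covariate left -0.62 ± 0.19. The remaining pair of Trpm3 probe sets, at group means of 2.13 to 2.36, differed by 0.11 and -0.02.

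Trpm7 encodes a channel fused to a protein kinase that carries magnesium, calcium and zinc and is made by most cell types. Its brightest probe set (1416801_at) read 7.90, 7.62 and 7.58 in the knockout-labelled arrays, against 7.82, 7.86 and 7.72 in controls, a difference of -0.10 ± 0.12. 1416799_at differed by 0.12 ± 0.22 and 1416800_at by -0.26 ± 0.15, both with overlapping groups. The fourth (1431355_s_at) ran otherwise, at 6.81, 6.68 and 5.67 in the knockout-labelled arrays, against 5.82, 7.75 and 7.29 in controls. Controls 2 and 3 lay 1.70 above control 1 on average, and the difference of -0.56 ± 0.53 was 0.42 ± 0.43 with the acinar covariate. As for Trpm5 1443413_s_at, the suffix s leaves this value uncertain as a measure of its gene.

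**Figure D2:**
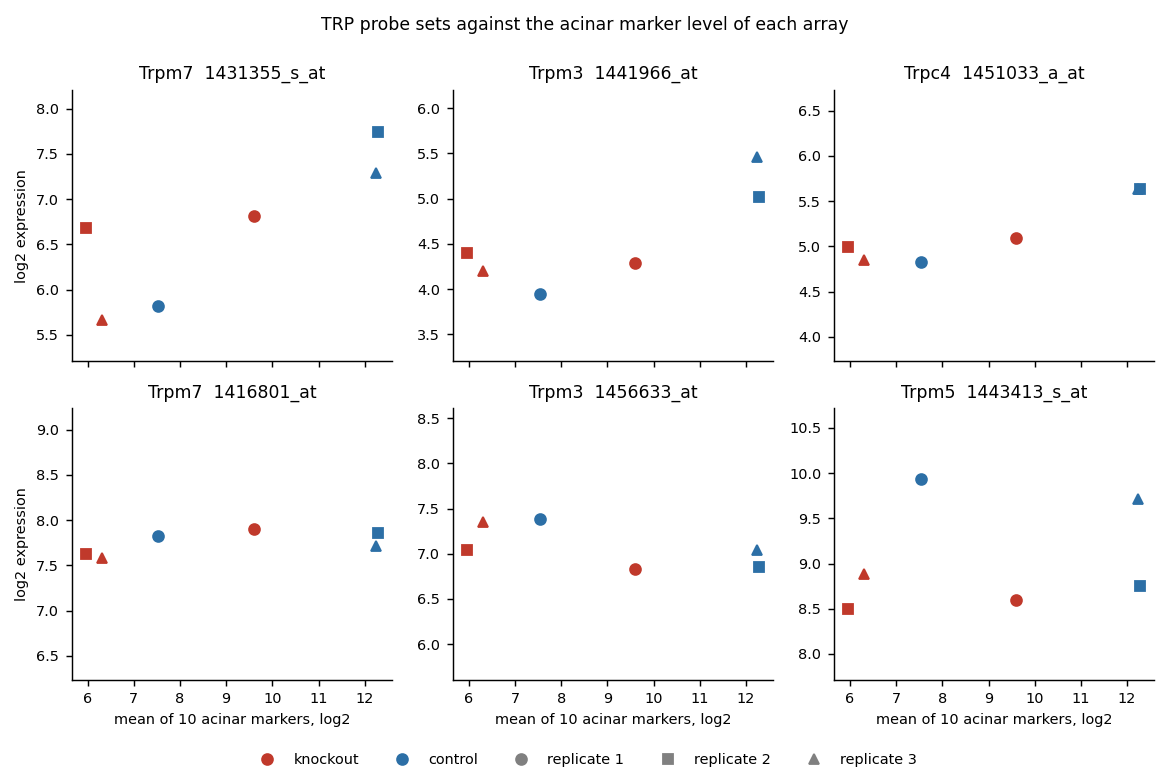
Log2 expression of 6 TRP probe sets (y axis, every panel spanning 3 log2 units) against the mean log2 level of 10 acinar markers on the same array (x axis), for knockout-labelled arrays (red) and controls (blue), symbols marking replicates 1 to 3. Controls 2 and 3, at acinar levels of 12.28 and 12.25, are the highest arrays (nearly the same point for Trpc4) for the Trpm7 probe set 1431355_s_at, for the Trpm3 probe set 1441966_at and for Trpc4, but not for the brightest probe sets of Trpm3 or Trpm5. The panels of 1431355_s_at, 1441966_at and Trpc4 were picked from all TRP probe sets for the largest rise of controls 2 and 3 over control 1. That rise is fixed by the choice and is no result.

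Trpc1 and Trpc4 encode subunits of channels opened downstream of Gq-coupled receptors, phospholipase C and calcium store depletion. Trpc1 read 8.53, 8.74 and 8.39 in the knockout-labelled arrays on its brightest probe set (1421096_at), against 8.53, 8.59 and 8.17 in controls (0.13 ± 0.16). Its second probe set (1421095_a_at) read 7.77, 8.03 and 7.87, against 7.84, 7.76 and 7.66 (0.14 ± 0.12). The groups overlapped on both. On the brightest Trpc4 probe set (1451033_a_at) the knockout-labelled arrays were at 5.09, 4.99 and 4.85, against 4.83, 5.63 and 5.63 in controls. The acinar-rich controls 2 and 3 were the 2 highest arrays and control 1 the lowest. The difference was -0.38 ± 0.23, and 0.05 ± 0.19 with the acinar covariate. The dimmer Trpc4 probe sets did not overlap between groups. 1446366_at read 3.13, 3.23 and 3.08, against 3.29, 3.69 and 3.27 (-0.27 ± 0.14), and 1423579_a_at read 2.01, 2.24 and 2.48, against 3.36, 2.52 and 3.00 (-0.71 ± 0.23). The last is among the dimmest probe sets of the array, at percentile 5.46 in the knockout-labelled arrays and 16.1 in controls, and its difference was -1.11 ± 0.22 with the acinar covariate.

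Trpa1 encodes the receptor of pungent and reactive chemicals on sensory neurons, which has also been described in rat beta cells. Its probe set (1457164_at) was dim, at 2.75, 2.44 and 2.85 in the knockout-labelled arrays, against 3.56, 2.94 and 3.03 in controls (-0.50 ± 0.20). All 3 controls lay above all 3 knockout-labelled arrays, and the group means were at percentiles 12.4 and 19.4 of all probe sets. Trpv4 encodes a channel that responds to swelling, shear and warmth. Its probe set (1417545_at) read 3.83, 3.79 and 3.64, against 4.02, 3.87 and 3.75 (-0.12 ± 0.12), with overlapping groups.

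Trpm1 was the channel gene with the largest difference. On probe set 1437445_at the knockout-labelled arrays read 4.26, 4.54 and 5.21, against 2.84, 2.75 and 2.83 in controls. The 3 controls lay close together, and the knockout-labelled arrays were spread more widely, all above every control. The means were 4.67 ± 0.49 in the knockout-labelled arrays and 2.81 ± 0.05 in controls (SD, n = 3 each), at percentiles 40.8 and 13.9 of all probe sets, a difference of 1.86 ± 0.24. With a control level this near the bottom of the array, the fold of 3.64 depends on the background level. Leaving out 1 array at a time gave 1.59 to 2.07, the acinar covariate 1.64 ± 0.31, and control 1 alone 1.83. It was counted past the threshold in the fit on all arrays, but not without control 2, without control 3, without knockout 2, with the acinar covariate or against control 1 alone.

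The other 3 Trpm1 probe sets did not share this difference. 1437531_at read 2.88, 3.04 and 3.08 in the knockout-labelled arrays, against 2.89, 2.79 and 3.32 in controls. 1418935_at read 2.74, 2.85 and 3.22, against 2.95, 2.79 and 2.98, and 1440241_at read 2.72, 2.96 and 2.89, against 2.80, 2.90 and 2.92. Their differences were 0.003 ± 0.16, 0.03 ± 0.15 and -0.02 ± 0.11, and both groups lay at percentiles 14.9 to 17.4. The annotation gives each of the 4 probe sets a transcript record of its own. Averaged over the 4, the Trpm1 difference was 0.47. Probe positions within the gene were not analysed here, so which transcript 1437445_at reads was not tested.

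**Figure D3:**
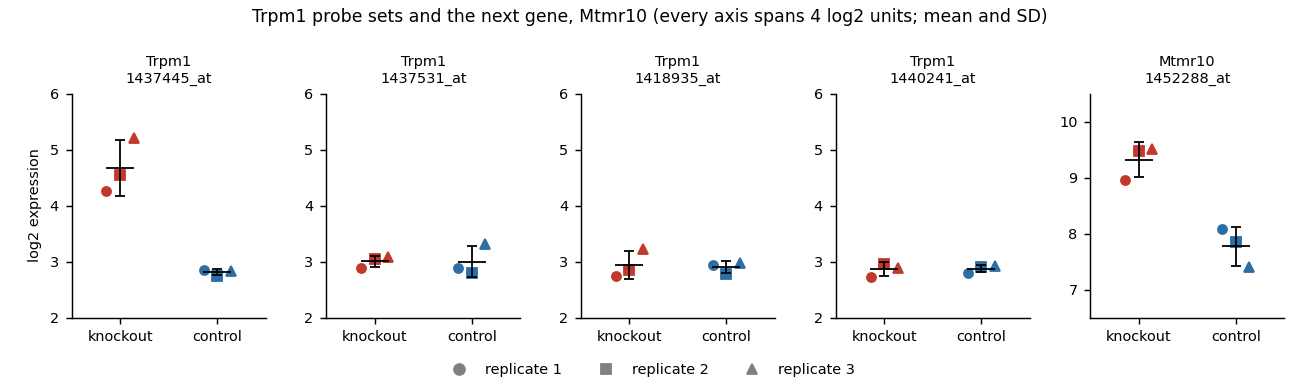
Log2 expression (y axis, every panel spanning 4 log2 units) of the 4 Trpm1 probe sets and of Mtmr10, the gene after Trpm1, on the knockout-labelled arrays (left, red) and the controls (right, blue), with symbols for replicates 1 to 3 and bars for the mean and SD. Only 1437445_at separates the groups among the Trpm1 probe sets, and Mtmr10 separates them by 1.54.

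RefSeq lists 2 starts for mouse Trpm1, and their surroundings are shown because a single probe set of the gene differed. Each stretch runs from 250 bases before to 50 bases after a start (assembly GRCm38.p6, plus strand, chr7:64153585-64153884 and chr7:64185209-64185508). Capitals mark TCATGTG, the core of the M-box through which MITF acts on pigment cell genes, in the first and CACGTG, the palindromic E-box, in the second.
Trpm1 first start: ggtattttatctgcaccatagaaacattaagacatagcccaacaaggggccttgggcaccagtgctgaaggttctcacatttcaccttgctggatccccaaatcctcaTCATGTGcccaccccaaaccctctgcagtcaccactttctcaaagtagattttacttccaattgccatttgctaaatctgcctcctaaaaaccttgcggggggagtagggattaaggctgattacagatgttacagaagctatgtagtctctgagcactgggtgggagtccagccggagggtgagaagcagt
Trpm1 second start: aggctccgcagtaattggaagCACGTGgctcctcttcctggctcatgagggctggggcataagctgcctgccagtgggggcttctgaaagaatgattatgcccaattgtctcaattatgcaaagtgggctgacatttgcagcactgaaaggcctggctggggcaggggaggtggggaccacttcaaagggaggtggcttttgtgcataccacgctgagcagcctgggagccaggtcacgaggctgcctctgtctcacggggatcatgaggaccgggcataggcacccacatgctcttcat
TCATGTG, searched on both strands, starts at position -142 from the first start, and CACGTG at -229 from the second. Over all 32851 promoters of this length, 3.77% hold TCATGTG and 7.15% CACGTG, and the 2 matches lie in different stretches, so they do not overlap. Among 10 promoters of 8 TRP genes here, TCATGTG occurred in 1 and CACGTG in 2 (Trpm1 and Trpm7). TTCNNNGAA, the STAT motif, occurred in 1 (Trpm3) against 8.30% of all. The DR1 element of PPAR dimers, 2 AGGTCA half-sites with 1 base between them, occurred in 0 against 0.0396% of all, so this strict spelling is rare everywhere. Trpm4 and Trpa1 had no entry. These matches describe letters, not binding.

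Trpm1 and Trpm3 each host a microRNA on their own strand. These are shown because a change of the host transcript and of its microRNA need not go together, and the array names no probe set for either (0 found). miR-211-5p lies in Trpm1 at chr7:64205831-64205852 and miR-204-5p in Trpm3 at chr19:22750610-22750631 (both plus strand, GRCm38.p6, RefSeq). Capitals mark the seed, bases 2 to 8, which pairs with targets.
miR-211-5p: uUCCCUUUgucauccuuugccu
miR-204-5p: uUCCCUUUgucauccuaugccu
The pair share the seed and differ at 1 position outside it. This seed is carried by 3 of the 1679 mature mouse microRNAs that RefSeq gives, the other being miR-7670-3p. miR-204 has been studied in beta cells as a regulator of insulin production. Their levels were not analysed here.

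Mtmr10, which encodes a myotubularin-related protein, is the next gene after Trpm1 on the same strand, with 0 RefSeq genes between. It read 8.96, 9.48 and 9.51 in the knockout-labelled arrays, against 8.08, 7.84 and 7.40 in controls, and rose by 1.54 ± 0.22 (adjusted p = 0.0347). The groups did not overlap. The call held without control 1 and was lost without any other single array (adjusted p 0.0572 to 0.151) and with the acinar covariate (1.15 ± 0.20, adjusted p = 0.152). Among the 5 genes with a probe set on each side of Trpm1, a window chosen after values were seen, 17 probe sets stood for 10 genes, and Mtmr10 alone passed. Of the 20 genes that flank the 10 TRP genes, 1 passed, again Mtmr10, and the median difference was -0.04. Kcnq1, the potassium channel gene next to Trpm5, read 5.09, 5.14 and 4.64, against 5.62, 5.53 and 5.15 in controls (-0.48 ± 0.19, adjusted p = 0.351 with limma). Pcolce2, next to Trpc1 (-0.65 ± 0.27, adjusted p = 0.378), and Usp50, next to Trpm7 (-0.64 ± 0.26, adjusted p = 0.364), differed more, also without a call.

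**Figure D4:**
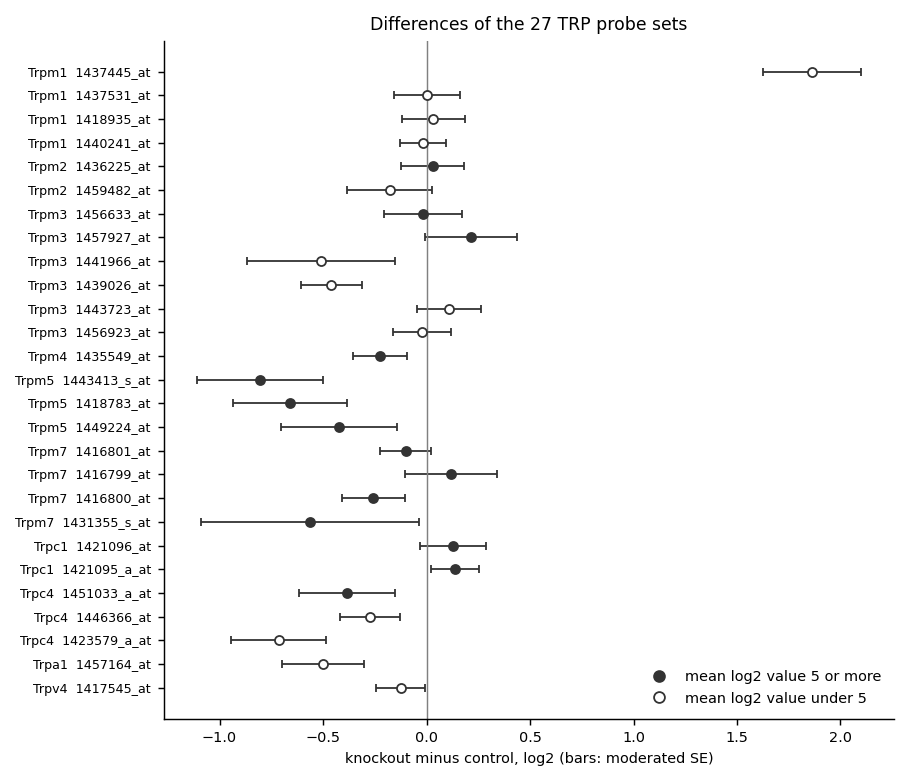
Difference in log2 expression, knockout-labelled arrays minus controls (x axis), for each of the 27 TRP probe sets (rows, grouped by gene), with bars for the moderated SE. Filled points have a mean log2 value of 5 or more and open points a lower one. Trpm1 1437445_at stands at 1.86, apart from the other 26, which lie between -0.81 and 0.22.

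The rest of the superfamily gave no call. Of 14 further TRP genes measured with 20 probe sets, 0 passed limma's test at an adjusted p under 0.05, in the main comparison or in any of its alternatives, and 0 of the 14 had an unadjusted p under 0.05 on the brightest probe set. Differences on the brightest probe sets ran from -0.41 to 0.18, with a median of 0.04. Mcoln1, which encodes the lysosomal channel mucolipin, gave 0.18 ± 0.14 on its brightest probe set and 0.35 ± 0.10 on another (adjusted p = 0.206). Trpv6, an epithelial calcium channel, read 4.86, 5.02 and 5.21 in the knockout-labelled arrays, against 4.77, 5.82 and 5.74 in controls (-0.41 ± 0.28, adjusted p = 0.598). Its highest arrays were the acinar-rich controls 2 and 3, and the acinar covariate left -0.02. The osmosensitive channel gene Trpv2 (-0.27 ± 0.20) and Pkd2l1, a polycystin-like channel gene (-0.27 ± 0.17), did not pass either. Trpm6, the kinase-channel relative of Trpm7, differed by 0.03.

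Upstream signals, partners and tissue settings of TRP channels were covered by 9 lists holding 102 genes, of which 91 were measured. They are called partner genes here for short, though some, as the pigment cell genes, only mark a setting. On any probe set 4 of the 91 passed, 2 higher and 2 lower, where 1.40% of all genes did. Counts of an unadjusted p under 0.05 in single lists have no share over all genes beside them, so nothing is read from them.

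In the lists of Gq and phospholipase C and of the taste-type TRPM5 cascade, Itpr3 was the gene that passed, as 1 of 15 and 1 of 8 measured. It encodes the inositol trisphosphate receptor that releases calcium upstream of TRPM5 in taste cells. Itpr3 was at 5.50, 5.52 and 5.43 in the knockout-labelled arrays, against 6.53, 6.40 and 6.71 in controls, and was lower by a log2 difference of -1.06 ± 0.12 (adjusted p = 0.0118). The groups did not overlap. The difference was -1.04 ± 0.17 with the acinar covariate and -1.04 against control 1 alone, and the call was lost in both (adjusted p = 0.122 and 0.111). It held without control 1 or control 2 and was lost without any other single array (adjusted p 0.0566 to 0.0684). Plcg2, a phospholipase C gene, gave -0.72 ± 0.24 (adjusted p = 0.273). Pou2f3, the factor that specifies taste receptor and tuft cells, was dim and gave 0.15 ± 0.10 (adjusted p = 0.619). Tuft cell markers averaged 3.82 to 4.46 on all 6 arrays.

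In the ADP-ribose and NAD list, which bears on TRPM2, 0 of 11 measured genes passed with limma, and 2 had an unadjusted p under 0.05. Nudt9, an ADP-ribose hydrolase related to the ligand-binding end of TRPM2, read 10.96, 11.03 and 10.91 in the knockout-labelled arrays, against 10.29, 10.19 and 10.47 in controls. The groups did not overlap and the difference of 0.65 ± 0.11 missed the threshold (adjusted p = 0.0631). Macrod1, which removes ADP-ribose from proteins, gave -0.53 ± 0.13 (adjusted p = 0.149).

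In the list of TRPC and store-operated entry partners 0 of 16 passed with limma, and 3 had an unadjusted p under 0.05. Cav1, the caveolin that scaffolds TRPC1, gave 0.58 ± 0.13 (adjusted p = 0.120), and the immunophilin gene Fkbp4 gave -0.39 ± 0.14 (adjusted p = 0.326). Homer2, a scaffold of TRPC channels, lies outside the rule for named genes and was added after its values were seen. Its brightest probe set read 3.14, 3.06 and 3.40 in the knockout-labelled arrays, against 3.25, 5.89 and 5.44 in controls (-1.66 ± 0.63, adjusted p = 0.341). The acinar-rich controls 2 and 3 were high on this probe set only. The dimmer Homer2 probe sets gave -0.27 ± 0.15 and -0.15 ± 0.17, with overlapping groups. Their controls 1 to 3 were at 3.35, 2.84 and 3.17, and at 2.74, 2.74 and 3.14. The potassium channel pair of the beta cell, which sets the potential against which TRP currents act, did not pass. Abcc8, which encodes SUR1, gave -0.32 ± 0.17 (adjusted p = 0.484) and Kcnj11 0.03 ± 0.16 (adjusted p = 0.964).

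Other lists cover the settings in which TRPM1 is known. In the cascade of retinal ON bipolar cells, where a glutamate receptor closes TRPM1 through a G protein, 0 of 8 measured genes passed with limma and 3 had an unadjusted p under 0.05. Rgs11, which ends that G protein signal, read 3.98, 4.31 and 3.83 in the knockout-labelled arrays, against 4.86, 4.77 and 4.78 in controls (-0.76 ± 0.14, adjusted p = 0.0773), and Gnao1, the G protein subunit itself, gave -0.38 ± 0.16 (adjusted p = 0.376). Among MITF and pigment cell genes 1 of 13 passed. Mlph, which links melanosomes and secretory granules to myosin, read 4.20, 3.71 and 4.21, against 5.80, 6.66 and 6.73 in controls (-2.35 ± 0.27, adjusted p = 0.0149). Its call held without control 1 and was lost without any other single array (adjusted p 0.0550 to 0.0763) and with the acinar covariate (-1.84 ± 0.23, adjusted p = 0.0571). A dimmer Mlph probe set gave -0.63 ± 0.14 (adjusted p = 0.113).

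Dct, the dopachrome tautomerase of melanin synthesis, read 10.03, 9.11 and 9.14 in the knockout-labelled arrays, against 7.97, 7.37 and 7.05 in controls. The groups did not overlap, and the difference of 1.96 ± 0.32 missed the threshold (adjusted p = 0.0530). Mitf gave -0.04 ± 0.20 on its brighter probe set (adjusted p = 0.959 with limma). Its dimmer probe set gave -0.74 ± 0.32 with overlapping groups (adjusted p = 0.403 with limma). Tyr and Tyrp1, the defining pigment enzymes, lay at 1.53 to 2.69 on all arrays and probe sets, among the dimmest of the array. Pmel and Mlana, further melanocyte markers, each gave -0.24. The mean of the 5 melanocyte markers was 4.41 to 4.64 in the knockout-labelled arrays and 4.01 to 4.36 in controls, and without Dct the mean of the other 4 was 3.24 to 3.32 in the knockout-labelled arrays and 3.17 to 3.45 in controls, a difference of -0.03.

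In the list of magnesium transport, the function shared with Trpm7, 1 of 12 measured genes passed. Slc41a2, a magnesium transporter gene, read 9.33, 9.23 and 8.84 in the knockout-labelled arrays, against 8.00, 7.60 and 7.39 in controls, and rose by 1.47 ± 0.20 (adjusted p = 0.0278). The call held without control 1 or knockout 3 and was lost without any other single array (adjusted p 0.0945 to 0.130) and with the acinar covariate (1.33 ± 0.27, adjusted p = 0.211). Cnnm2, a magnesium transport regulator, gave 0.61 ± 0.16 (adjusted p = 0.179).

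In the list around TRPV4, 1 of 10 measured genes passed, and it did so on all 3 of its probe sets. Aqp4 encodes a water channel that works with TRPV4 in glial volume regulation. Its probe set 1447745_at read 7.21, 6.98 and 7.14 in the knockout-labelled arrays, against 5.17, 5.17 and 5.63 in controls, and rose by 1.78 ± 0.16 (adjusted p = 0.00509). The rise passed in 6 of 6 fits with an array left out and in the fit on acinar level (adjusted p = 0.0387), and missed the threshold with control 1 as the single control (1.94, adjusted p = 0.0510). The brightest probe set of Aqp4 (1434449_at) rose by 1.59 ± 0.19 (adjusted p = 0.0189) and 1425382_a_at by 1.67 ± 0.23 (adjusted p = 0.0286). Of the fits with an array left out, 1434449_at kept its call without control 1 or control 2 and 1425382_a_at without control 1 (adjusted p otherwise 0.0544 to 0.133). Both lost it with the acinar covariate (adjusted p = 0.155 and 0.212) and against control 1 alone (adjusted p = 0.116 and 0.179). Pacsin3, which binds TRPV4, read 5.27, 5.37 and 5.85 on its brightest probe set, against 5.50, 7.16 and 6.90 in controls (-1.03 ± 0.43, adjusted p = 0.379). The acinar-rich controls 2 and 3 were highest there, 1.53 above control 1 on average. The dimmer Pacsin3 probe sets gave -0.27 ± 0.14 and -0.18 ± 0.20, with overlapping groups. On these, controls 2 and 3 lay 0.21 and 0.37 above control 1 on average.

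**Figure D5:**
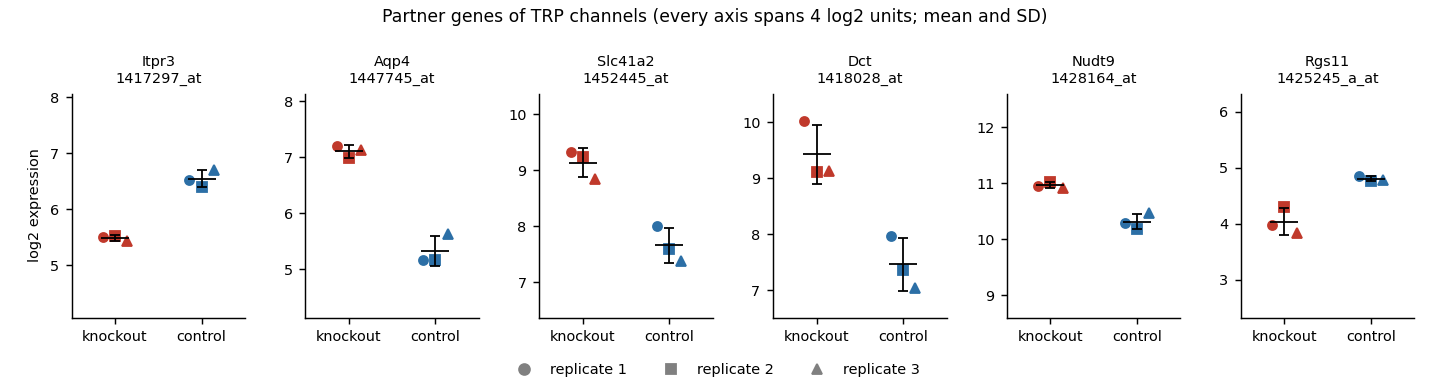
Log2 expression (y axis, every panel spanning 4 log2 units) of 6 genes from the partner lists, by array. Knockout-labelled arrays are on the left (red) and controls on the right (blue). Symbols mark replicates 1 to 3 and bars the mean and SD. Itpr3 is lower and Aqp4 and Slc41a2 are higher in the knockout-labelled arrays past the threshold, while Dct, Nudt9 and Rgs11 separate the groups without passing it.

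The genes whose brightest probe set followed the 2 most different TRP genes most closely were ranked by Pearson's r over the 6 arrays among 16302 genes, as a description. Closest to Trpm1 were Txnrd2, Rnf180, Rabepk, Erlin2 and Plet1 (r from 0.991 to 0.996). Their log2 differences ran from 0.29 (Erlin2) to 1.90 (Plet1), with 1.10 for Rnf180. In the limma fit over all probe sets Plet1 (adjusted p = 0.00893) and Rnf180 (adjusted p = 0.0344) passed. Txnrd2, Rabepk and Erlin2 did not. Both calls were lost with the acinar covariate (adjusted p = 0.0973 and 0.244). The direction of these differences is fixed by the likeness to Trpm1, so nothing is read from them. By deviations from the group means, the genes closest to Trpm1 were Snx21, Dgki, Pdzd9, Tbc1d19 and Otoa. Closest to Trpm5 over the 6 arrays were Rab19, Fam241b, Btbd17, Efnb3 and H1f4 (r from 0.989 to 0.994), and by deviations H2bc22, Pbx2, Ro60, Pus3 and Snapin. H1f4 read 9.25, 9.12 and 9.43 in the knockout-labelled arrays, against 10.41, 9.17 and 10.32 in controls, with control 2 low as for Trpm5. The 6 points share their groups and arrays, and no p is given for r.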

How the data were processed

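RNA of islets from 6 mice was measured on 1-colour Affymetrix arrays. The deposited values are log2 expression per probe set, made by the authors with RMA, which corrects background, normalizes quantiles and summarises probes (per the submitters' processing notes, which give no version). Scanner files and detection calls were not analysed here. The number of arrays limits the precision. Of 45101 probe sets, 64 manufacturer's controls were left out, and 45037 were fitted by limma 3.58.1 under R 4.3.3 (functions lmFit and eBayes, no term but group, two-sided tests, Benjamini-Hochberg over all). An adjusted p under 0.05 is a call. Gene symbols are the platform's, 34945 probe sets having 1, 932 several and 9160 none. The probe set with the highest mean stood for a gene. Sequences are from RefSeq, GRCm38.p6.

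The members, the gene lists and the alternatives were chosen with earlier results of these data known. Named were all members, called list genes, the 4 other TRP genes and the 2 genes per partner list with the smallest p, some of the flanking genes, and the 5 closest genes in pattern. Of the calmodulin and SUR1 list, 0 of 2 measured genes passed with limma, and 0 had an unadjusted p under 0.05. Alternatives were median centring, quantile normalization again, a floor of log2 5, an intensity trend, each array left out, the replicate number as a block, an acinar covariate, controls 2 and 3 left out, and means over probe sets. Replicate numbers were not treated as pairs in the main fit. The r of deviations was -0.05, 0.14 and 0.005 for shared numbers and -0.13 to 0.10 for the others. With so few arrays this cannot exclude a pairing. The fit was tested on 10 simulated sets with the measured means and spread, drawn as independent normal values. It recovered 3.73% of 1.5-fold, 57.2% of 2-fold and 97.0% of 4-fold changes. On average 5.89% of the calls were false. A missing call on a difference under 2-fold is therefore no sign that a gene is unchanged.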

Additional observations from a re-analysis of the deposited data

How the results depend on the processing

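Of 345 recomputed member differences, 319 moved by no more than 1 SD between replicates, which for a small difference can include a change of sign, or, for the Trpm1 probe set 1437445_at, kept direction and side of the threshold (its mean over the 4 Trpm1 probe sets, 0.47 beside 1.86, has no test). Another 21 moved further (7 with the acinar covariate and 14 without controls 2 and 3). The other 5, all of Trpm1, kept their direction and were no longer past the threshold, and 0 were called in the opposite direction. Over all probe sets, 404 passed, 126 with the acinar covariate, 887 with an intensity trend, 246 with the replicate block and 54 without controls 2 and 3, which leaves 1 control assumed to vary as the other group does. Leaving out 1 array gave 152 (without control 3) to 783 (without control 1), and 239, 161, 161 and 209 without control 2 or knockout 1, 2 or 3. The count of TRP probe sets, 1, was 0 with the acinar covariate, 0 above a mean log2 of 5, which removes the Trpm1 probe set, and 0 without controls 2 and 3. It was 0 to 1 with an array left out, being 0 without control 2, control 3 or knockout 2. Partner genes, 4, were 1 with the acinar covariate, 7 with the intensity trend, 7 above the floor, 0 without controls 2 and 3, and 1 to 9 with an array left out: 9 without control 1, 2 without control 2 or knockout 3, and 1 without control 3, knockout 1 or knockout 2. With the replicate block 4 partner genes and 1 TRP probe set passed, so it changed no other count by over 1.5 times. Except where stated, the cause of these shifts was not tested. The limits are 3 arrays per group, acinar RNA that differs between arrays, no detection calls, and dim probe sets for Trpm1, Trpa1 and Trpv4. Replicates 1 to 3 are separate animals per the design text.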

Other observations

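Probe sets of one TRP gene did not always vary together between animals. The gap between the brightest probe sets of Trpc1 lay between 0.50 and 0.83 on the 6 arrays. For Trpm7 the gap between 1416801_at and 1431355_s_at ran from 0.94 to 1.91 in the knockout-labelled arrays with both lower and higher gaps in controls (lowest 0.11), and for Trpm3 that between 1456633_at and 1441966_at from 2.54 to 3.15 in the knockout-labelled arrays and from 1.58 to 3.44 in controls.

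Myo5a, which encodes the myosin that carries melanosomes and secretory granules, gave 0.79 ± 0.16, 0.81 ± 0.16 and 0.80 ± 0.14 on its 3 probe sets, with groups that did not overlap and adjusted p of 0.0944, 0.0869 and 0.0641 (limma), and was picked after its values were seen. Leukocyte markers averaged 5.57 to 5.82 in the knockout-labelled arrays and 5.08 to 5.19 in controls, and delta and PP cell markers 10.03 to 10.12 in the knockout-labelled arrays and 10.74 to 10.92 in controls. Their part in the TRP values was not tested.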
